A study of Mus musculus with 10 samples.

Results

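Genes that mark early embryonic states were followed through 10 male mouse embryonic stem cell (ESC) lines: Dppa2, Dppa4, Dppa3, Dppa5a, Zscan4c, Zscan4d, Zscan4f, Tcstv1, Tcstv3 and Zfp352. They are 10 of the 35427 genes in the data and were picked by name, with earlier results of these data known, so their differences between genotypes are given as descriptions, and counts of those past a threshold stand only beside the share of all genes. The 4 Dppa genes had at least 565 reads in every line, and each of the 6 genes of the 2-cell stage had at most 3 reads in any line. The lines came from C57BL/6 mice and had 3 genotypes of Tdg, the gene of a DNA glycosylase that excises oxidised forms of 5-methylcytosine: Tdg+/+ (wt; WT21, WT22 and WT23), Tdg+/- (HET11, HET12 and HET13) and Tdg-/- (KO02, KO03, KO04 and KO05). No line received a treatment. All lines were grown from blastocysts of Tdg+/- parents, first on feeder cells and then on gelatin in serum-free medium with 2 kinase inhibitors (2i) and leukemia inhibitory factor, so none of them represents the serum culture in which 2-cell-like cells are often studied. Each line was 1 library of ribosome-depleted total RNA, and no label says which mating a line came from. Differences between lines therefore also hold differences between embryos.

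DPPA2 and DPPA4 are SAP-domain proteins that form a pair on CpG-rich promoters, keep developmental promoters open to activation and, in mouse ESCs, act upstream of Dux and the genes of the 2-cell embryo. A small share of cells in an ESC culture passes through a 2-cell-like state, in which Zscan4, Tcstv and Zfp352 are switched on together with endogenous retroviral elements. DPPA3 (also Stella or PGC7) protects DNA methylation of the maternal genome in the zygote and in ESCs restrains the methylation maintenance factor UHRF1, and DPPA5A (ESG1) is a KH-domain protein that binds RNA and marks undifferentiated cells.

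The lines held 31095288 to 39916042 reads in genes. Levels are given as CPM, reads scaled to a common library size with TMM factors over the 10 lines, and levels of different genes are compared only as TPM, which allows for transcript length. Tdg itself followed the labels, with 89.9 ± 3.98 CPM (SD, n = 3) in wt, 42.7 ± 3.41 (n = 3) in Tdg+/- and 9.31 ± 1.41 (n = 4) in Tdg-/- lines. All 12 markers of naive pluripotency were detected at a summed 2025 to 2510 TPM in every line, against at most 45.4 TPM for 6 primed markers, 25.6 for 6 trophoblast, 18.6 for 9 feeder fibroblast and 1.48 for 7 primitive endoderm markers, while 7 germ cell and oocyte markers reached 53.9 TPM in a wt line and at most 24.0 in Tdg+/- and 19.6 in Tdg-/- lines. KO02 stood apart from the other Tdg-/- lines, with a chi-square per gene of 86.99 to 142.4 against them, whereas KO03, KO04 and KO05 gave 18.95 to 27.05 among themselves. To a lesser degree 1 line of each other genotype did so too. WT21 gave 53.89 and 72 against WT22 and WT23, which gave 20.8. HET11 gave 42.34 and 57.44 against HET12 and HET13, which gave 26.56. KO03, KO04 and KO05 had normalization factors of 0.909 to 0.930 against 1.01 to 1.06 in the other 7 lines. In bulk RNA, fewer cells of a type and less RNA per cell cannot be told apart.

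Dppa5a was among the most abundant RNAs of these cells and the other Dppa genes were expressed at moderate levels. Per transcript length, Dppa5a reached 5780 to 8272 TPM and ranked between 10 and 20 among all genes of a line. Dppa3 followed with 33.1 to 146 TPM, Dppa4 with 49.5 to 82.1 TPM and Dppa2 with 11.9 to 35.8 TPM. Dppa2 was below Dppa4 in every line, while the order of Dppa3 and Dppa4 changed from line to line.

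**Figure D1:**
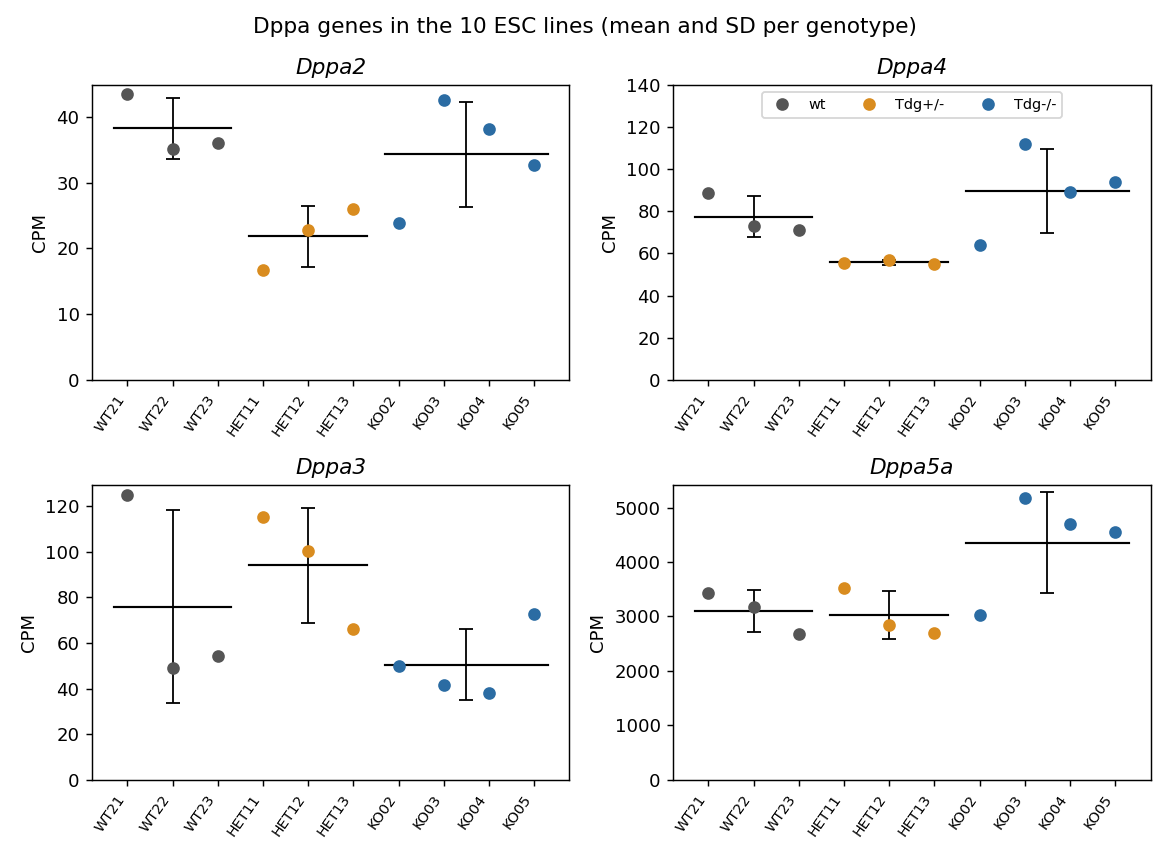
CPM (y axis, from 0) of Dppa2, Dppa4, Dppa3 and Dppa5a in each of the 10 lines (points, coloured by genotype), with the mean (horizontal line) and SD (bar) of each genotype. The Tdg+/- lines were the lowest group for Dppa2 and Dppa4, WT21 was far above the other wt lines for Dppa3, and KO03, KO04 and KO05 were the highest lines for Dppa5a.

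Dppa2 was lowest in the Tdg+/- lines. It had 43.5, 35.1 and 36.1 CPM in WT21, WT22 and WT23 (38.3 ± 4.60, SD, n = 3), 16.8, 22.8 and 26.0 CPM in HET11, HET12 and HET13 (21.8 ± 4.67, n = 3), and 23.9, 42.5, 38.2 and 32.7 CPM in KO02, KO03, KO04 and KO05 (34.3 ± 8.03, n = 4). All Tdg+/- lines were below all wt lines, whereas KO02 fell within the Tdg+/- range and KO03, KO04 and KO05 lay within or near the wt range. The log2 fold change was -0.83 ± 0.175 (SE) for Tdg+/- against wt, -0.14 ± 0.190 for Tdg-/- against wt and 0.65 ± 0.209 for Tdg-/- against Tdg+/-. Without HET11, the lowest line, the first of these was -0.66. The reads of Dppa2 were split between 2 annotated transcripts, and the shorter one took 52.4% to 56.9% of them in wt, 43.9% to 60.03% in Tdg+/- and 43.7% to 58.1% in Tdg-/- lines. The ranges of the 3 genotypes overlapped.

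Dppa4, the partner of Dppa2, had nearly the same level in all Tdg+/- lines. It had 88.7, 73.0 and 70.9 CPM in the wt lines in the order above (77.6 ± 9.70, n = 3), 55.6, 56.8 and 54.8 CPM in the Tdg+/- lines (55.7 ± 0.977, n = 3) and 63.8, 112.0, 89.2 and 94.1 CPM in the Tdg-/- lines (89.8 ± 19.9, n = 4). The Tdg+/- lines lay below every line of both other genotypes, and KO02 was again the lowest of the Tdg-/- lines. The log2 fold change was -0.49 ± 0.123 (SE) for Tdg+/- against wt, 0.23 ± 0.185 for Tdg-/- against wt and 0.68 ± 0.169 for Tdg-/- against Tdg+/-. In TPM the difference of Tdg-/- from wt was 0.02 on the log2 scale and that from Tdg+/- 0.51. A single transcript took 94.5% to 98.1% of the Dppa4 reads in each line.

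The 2 genes lie next to each other on chromosome 16, which was high as a whole in WT21. The median of 312 other chromosome 16 genes, as the difference in log2 CPM from the gene's own median line value, was 0.38 in WT21 and between -0.04 and 0.01 in the other 9 lines. Dppa2 stood at 0.36 and Dppa4 at 0.30 in WT21, so that both were within 0.08 of their chromosome there. In the Tdg+/- lines Dppa2 was at -1.01, -0.57 and -0.38 and Dppa4 at -0.37, -0.34 and -0.39, in each case below the chromosome median. Relative to the chromosome of the same line, the difference between Tdg+/- and wt became -0.67 for Dppa2 and -0.31 for Dppa4. Without WT21 the log2 fold changes were -0.71 and -0.37. The differences of Tdg-/- from Tdg+/- relative to the chromosome were 0.62 for Dppa2 and 0.64 for Dppa4, close to those before.

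The 5 nearest measured genes on each side of the pair were Phldb2, Plcxd2, Gm4737, Nectin3 and Gm7204, and Morc1, Dzip3, Cip2a, Ift57 and Cd47. All 10 neighbours had a log2 fold change below 0 for Tdg+/- against wt, with a median of -0.14. The median of the other chromosome 16 genes differed by -0.16 between the same genotypes. Gm4737, Plcxd2 and Gm7204 were low, with at most 32, 47 and 67 reads in a line. WT21 was the highest of the 10 lines for 5 of the 10 neighbours. Morc1, a germ cell gene of transposon silencing directly beside Dppa2, had a log2 fold change of -0.03 ± 0.173 (SE, adjusted p = 0.943, edgeR) for Tdg+/- against wt. Dzip3 was at -0.70 in HET12 and -0.83 in HET13 and Cip2a at -0.61 and -0.70, but in HET11, the line in which Dppa2 was lowest, they were at -0.03 and -0.04. How much of the Dppa2 and Dppa4 differences belongs to their neighbourhood was not tested.

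**Figure D2:**
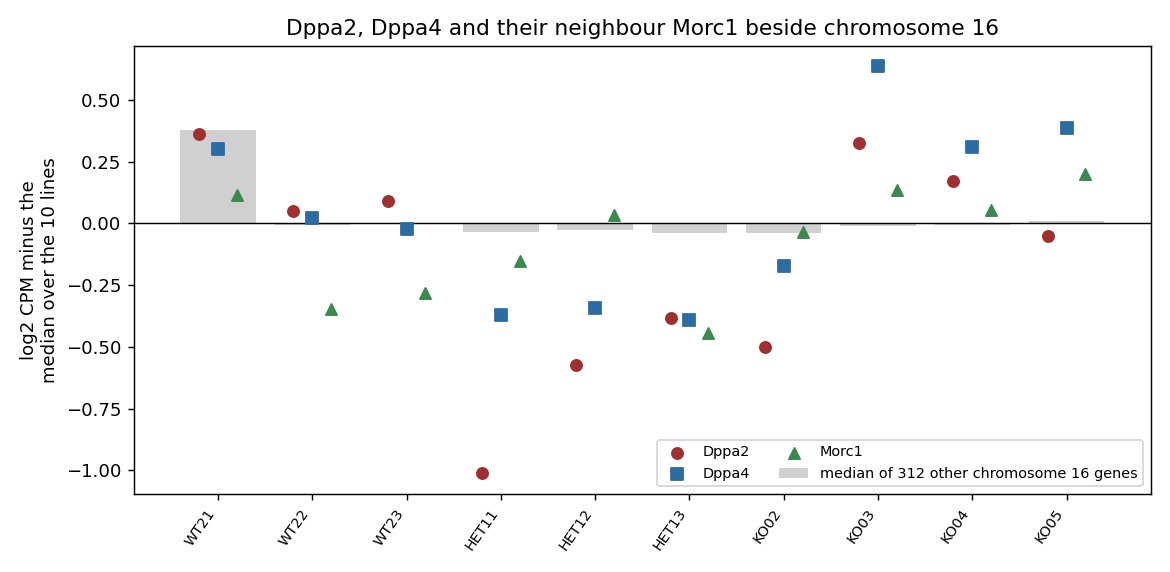
Difference in log2 CPM from each gene's median line value (y axis) for Dppa2, Dppa4 and the neighbouring gene Morc1 in each line, with grey bars for the median of 312 other chromosome 16 genes. In WT21 both Dppa genes lay at the raised level of the chromosome, and in the Tdg+/- lines both lay below a chromosome median near 0.

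Dppa3 varied widely between lines of the same genotype. It had 124.9, 48.8 and 54.2 CPM in the wt lines (76.0 ± 42.5, n = 3), 115.5, 100.4 and 66.3 CPM in the Tdg+/- lines (94.0 ± 25.2, n = 3) and 49.7, 41.6, 37.96 and 72.6 CPM in the Tdg-/- lines (50.5 ± 15.6, n = 4). WT21 was the highest of all lines and had more than 2 times the level of the other wt lines. Every pair of genotypes overlapped in CPM. The log2 fold change was 0.29 ± 0.363 (SE) for Tdg+/- against wt, -0.58 ± 0.333 for Tdg-/- against wt and -0.90 ± 0.248 for Tdg-/- against Tdg+/-. WT21 decided both comparisons with wt, which became 0.87 and -0.01 without it. In TPM the differences of Tdg-/- lines were larger, -0.92 from wt and -1.19 from Tdg+/-. On that scale all Tdg-/- lines (33.1 to 60.1 TPM) lay below all Tdg+/- lines (73.6 to 140 TPM) and still overlapped the wt lines (58.2 to 146 TPM). The highest sum of germ cell and oocyte markers (53.9 TPM) was in a wt line, but these sums are given as ranges per genotype and do not name WT21. The Tdg+/- lines, with 66.3 to 115.5 CPM of Dppa3, had at most 24.0 TPM of these markers. Dppa3 is close to this group by its known expression, and whether the markers vary with it from line to line was not tested. Dppa3 lies on chromosome 6, whose median stayed between -0.04 and 0.06 in every line, as did those of chromosomes 7 and 9.

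Dppa5a was highest in KO03, KO04 and KO05. It had 3437, 3174 and 2677 CPM in the wt lines (3096 ± 386, n = 3), 3522, 2852 and 2691 CPM in the Tdg+/- lines (3022 ± 441, n = 3) and 3021, 5170, 4696 and 4545 CPM in the Tdg-/- lines (4358 ± 930, n = 4). KO02 was within the range of the other genotypes, and the other Tdg-/- lines were above all of them. The log2 fold change was -0.05 ± 0.134 (SE) for Tdg+/- against wt, a difference that took both signs when single lines were left out (-0.17 to 0.05). It was 0.51 ± 0.188 for Tdg-/- against wt and 0.52 ± 0.188 for Tdg-/- against Tdg+/-, and 0.65 and 0.66 without KO02. In TPM the genotype means were 6400, 6385 and 7546 for wt, Tdg+/- and Tdg-/-, which gave only 0.24 on the log2 scale for Tdg-/- against wt.

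The Dppa5a transcript is short, at 619 bases, and short transcripts as a class were high in the same lines. The median of 307 other genes whose transcripts were within 20% of that length, on the same scale of differences in log2 CPM, was 0.43 in KO03, 0.31 in KO04 and 0.33 in KO05. It was between -0.14 and 0.00 in the other 7 lines, KO02 included. Relative to these genes, Dppa5a stood at 0.22, 0.19 and 0.13 in KO03, KO04 and KO05, and in no line beyond the middle 80% of them. The difference of Tdg-/- from wt fell to 0.17 and that from Tdg+/- to 0.21. Dppa3, at 833 bases, went the other way in KO03 and KO04 and not in KO05: 593 genes of like length had medians of 0.35, 0.23 and 0.28 in KO03, KO04 and KO05, and Dppa3 was at -0.53, -0.66 and 0.28. In KO03 only 1.52% and in KO04 0.337% of these genes were lower than Dppa3. At the other end, Dppa3 was higher than 99.2% of them in WT21 and 99.0% in both HET11 and HET12. Relative to genes of like length its mean difference of Tdg-/- from Tdg+/- went from -0.91 to -1.13. For Dppa4 the like-length genes moved by 0.12 between wt and Tdg-/-, which left 0.07 of its difference from wt, and 0.55 of that from Tdg+/-. For Dppa2, whose transcripts are longer, they moved by at most 0.02. What sets transcripts of this length apart in the 3 lines was not tested.

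**Figure D3:**
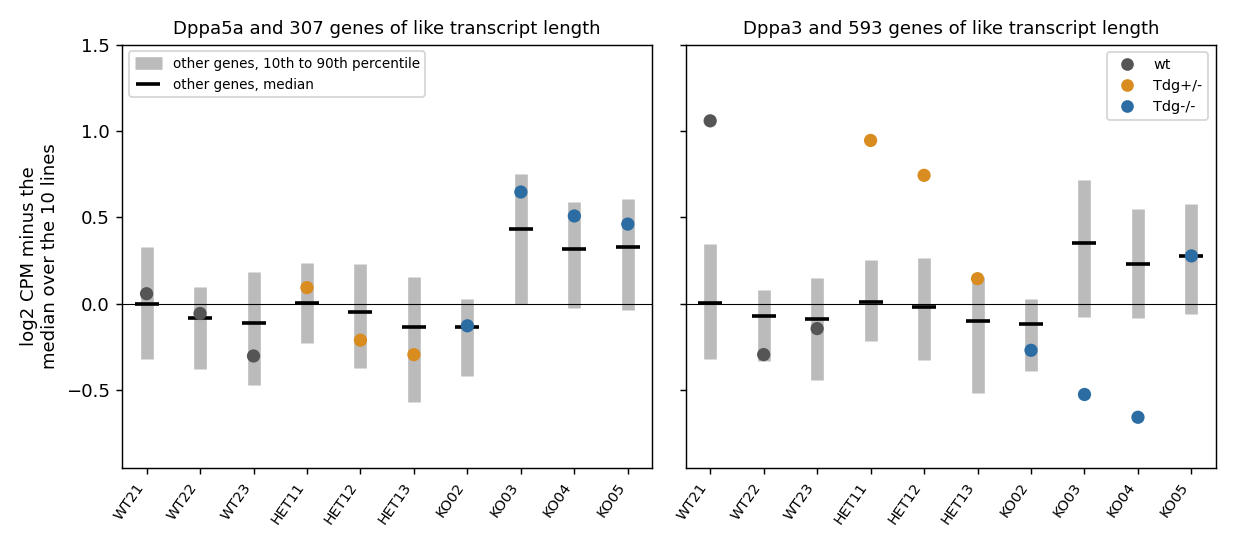
Difference in log2 CPM from each gene's median line value (y axis) for Dppa5a and Dppa3 (points, coloured by genotype), with the median (black dash) and the range from the 10th to the 90th percentile (grey) of other genes with transcripts of like length. Dppa5a was high together with the short transcripts in KO03, KO04 and KO05. Dppa3 lay below the range of its like-length genes in KO03 and KO04 and above it in WT21, HET11 and HET12.

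The same fits over all genes give the background. Of 13880 genes tested for Tdg+/- against wt with edgeR's quasi-likelihood test, 0.0288% passed an adjusted p of 0.05, and 0.0718% of 13926 passed for Tdg-/- against wt, with none of the 4 Dppa genes among them in either comparison. For Tdg-/- against Tdg+/- 9.03% of 13962 genes passed, 3.52% as higher and 5.51% as lower, and 1 of the 4 Dppa genes, Dppa4, was among the higher. In CPM, lines of both genotypes did not overlap for Dppa2 and Dppa4 in Tdg+/- against wt, where this held for 21.8% of all genes. They overlapped for all 4 genes in Tdg-/- against wt, against 9.87% of genes without overlap, and were apart for Dppa4 alone in Tdg-/- against Tdg+/-, against 24.6% of genes. DESeq2 called 2, 0 and 4 of the 4 genes in the comparisons in this order, where it called 744, 93 and 3347 of all genes. For Tdg+/- against wt, edgeR called 1 (Dppa2) without a filter on low counts, where 269 of all genes passed. With 3 surrogate variables in that fit it called 3 (Dppa2, Dppa3 and Dppa4), where 3708 passed. For Tdg-/- against Tdg+/- it called 2 (Dppa3 and Dppa4) without a filter, where 1553 passed. Leaving out KO02 brought the edgeR count to 1 (Dppa5a) for Tdg-/- against wt, where 3077 of all genes then passed. For Tdg-/- against Tdg+/- it brought the count to 4, where 5659 of all genes then passed. Leaving out any other line of the latter comparison brought the count to 0. Since the genes were picked with these comparisons known, nothing is read from these counts. Comparisons with a common genotype also share its lines.

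**Figure D4:**
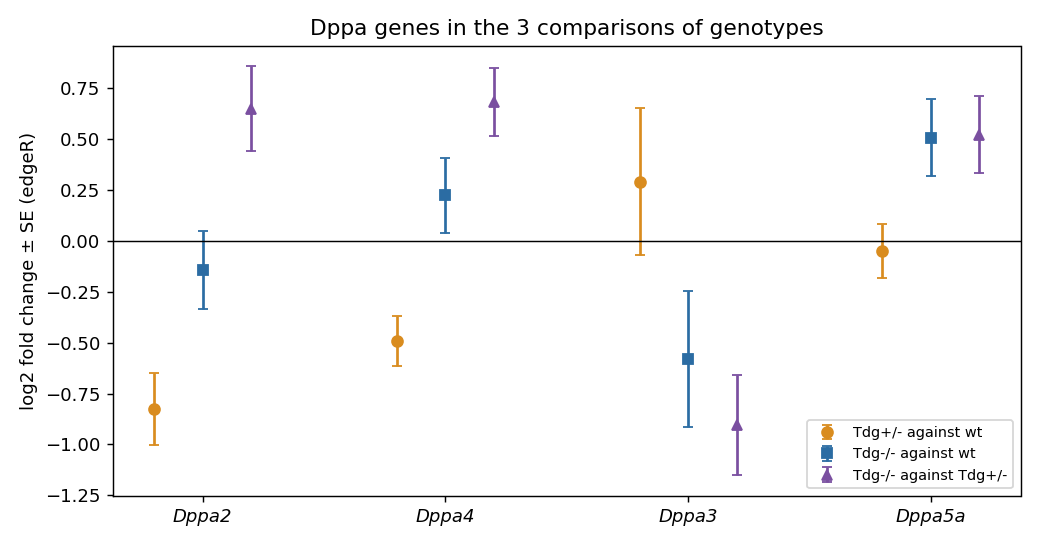
Log2 fold change (y axis, points) with its SE (bars) from edgeR for the 4 Dppa genes in the 3 comparisons of genotypes. Dppa2 and Dppa4 were below 0 for Tdg+/- against wt and above 0 for Tdg-/- against Tdg+/-, and Dppa5a was near 0 for Tdg+/- against wt.

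Across the 10 lines Dppa4 varied with both Dppa2 and Dppa5a, while Dppa3 followed none of them closely. Pearson's r of log2 CPM was 0.84 for Dppa2 and Dppa4 (Spearman's rho 0.75) and 0.82 for Dppa4 and Dppa5a (rho 0.72). Without the lines farthest from the median these were 0.79 and 0.67, and within genotypes 0.77 and 0.87. For Dppa2 and Dppa5a r was 0.42 (rho 0.36). Dppa3 had r of -0.43 with Dppa2, -0.39 with Dppa4 and -0.31 with Dppa5a, and the sign turned for the first without the 2 farthest lines (0.12) and for the other pairs within genotypes (0.25 for both). The points share libraries and scaling, so these values describe the lines only.

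Among 11094 other genes (mean of 1 CPM or more), those closest to Dppa2 over the 10 lines were Fgl2, Inpp1 and Slc1a3 (r of 0.93, 0.93 and 0.92). Closest to Dppa4 were Cluap1 and N6amt1 (0.98 and 0.97), which also lie on chromosome 16. Pi4k2b, Zdhhc9 and Hormad2 were closest to Dppa3 (0.96, 0.95 and 0.95). Atp5j2, Ndufa2 and Scnm1 were closest to Dppa5a (0.99, 0.99 and 0.98), and the first 2 of these encode small subunits of the mitochondrial respiratory chain and ATP synthase. The Zscan4 genes were too low in all lines for such a comparison.

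The Dppa genes have pseudogene copies, and 80-base windows, the length of a read, show how far reads could be told apart. Of the windows of its longest or main transcript, 74.6% were found in no other gene for Dppa2, 78.4% for Dppa4, 97.9% for Dppa3 and 83.5% for Dppa5a. The copies themselves had few reads. Gm9788, which shared most with Dppa2, had 0 to 11 reads per line, and Gm14058, which shared most with Dppa4, had 1 to 92 (median 7). For Dppa5a, Gm6798, which shared most, had 11 to 34, Dppa5b had 10 to 31 and Gm15310 had 54 to 132. These are small beside the lowest count of the genes they copy, which were 565 reads for Dppa2, 1875 for Dppa4 and 85756 for Dppa5a.

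Among genes of the 2-cell stage, the Zscan4 cluster on chromosome 7 was nearly silent in every line. ZSCAN4 proteins carry a SCAN domain and zinc fingers and take part in telomere maintenance of ESCs. The coding sequences of Zscan4c and Zscan4f were 99.6% identical (6 mismatches in 1518 bases), and that of Zscan4d was 97.7% identical to both (35 mismatches). Of 1439 windows of 80 bases along the coding sequence, 369 (25.6%) were the same in all 3 genes. Over the whole transcript 22.8% of the windows of Zscan4c, 62.5% of Zscan4d and only 8.17% of Zscan4f were found in no other gene, so reads cannot be assigned to Zscan4c or Zscan4f with certainty and the genes are also given as a sum. The window in which the 3 genes differ most was coding bases 1041 to 1120 in transcripts of the GRCm38 annotation. It shows what a read would need to cover to tell these 3 apart, and the other Zscan4 genes were not compared in it. The 8 bases that differ among the 3 genes are in capitals.
Zscan4c: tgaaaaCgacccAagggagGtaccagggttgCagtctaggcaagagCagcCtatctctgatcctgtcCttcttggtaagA
Zscan4d: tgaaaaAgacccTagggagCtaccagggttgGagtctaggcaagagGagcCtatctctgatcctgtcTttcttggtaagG
Zscan4f: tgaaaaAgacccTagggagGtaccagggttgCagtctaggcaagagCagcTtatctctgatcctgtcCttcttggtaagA

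Zscan4c had 1 read in WT21 and 2 in KO02, Zscan4d had 1 in KO05, and Zscan4f had 1 in WT22, 3 in HET11 and 2 in KO04. All other lines were at 0 for these genes. Their sum over the series was 11.2 estimated reads, from 6 of 10 lines and among 353848279 reads. All 9 Zscan4 genes of the files together had 21.04 reads, at most 7.59 in a line (KO05). A count of 0 allows up to 3 reads, which is 0.0733 to 0.0936 CPM depending on the line, for counting error only, so Zscan4c, Zscan4d and Zscan4f, singly or summed, stood at or under this limit in every line. Of the KO05 reads, 6.345 were given to the pseudogene Zscan4-ps3, which took the sum of all 9 genes above the limit there (0.226 CPM), as 4 reads did in KO02 (0.120 CPM). No difference between genotypes could be detected at this depth.

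Tcstv1 and Tcstv3, variable-group genes of the 2-cell embryo on chromosome 13, were as low. Their coding sequences were 94.7% identical (27 mismatches in 507 aligned bases), and 93.3% and 87.0% of their windows were found in no other gene. The window of coding bases 372 to 451, in which they differ most, is shown with the 10 differing bases in capitals. A read from here would tell Tcstv1 from Tcstv3. Gm21818 and Gm21761, which share windows with both genes, were not compared in it.
Tcstv1: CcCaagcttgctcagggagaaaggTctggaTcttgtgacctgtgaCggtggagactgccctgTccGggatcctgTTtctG
Tcstv3: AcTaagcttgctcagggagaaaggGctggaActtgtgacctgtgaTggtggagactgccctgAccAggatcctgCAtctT

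Tcstv1 had 1 read in WT23 and Tcstv3 had 1 read in KO04, with 0 in every other line. Zfp352, a zinc finger gene of the 2-cell embryo with 97.6% of its windows found in no other gene, was at 0 in all 10 lines. The 6 genes together had 13.2 estimated reads in the series, with 0 to 3.30 per line: 1 to 1.497 in wt, 0 to 3 in Tdg+/- and 0 to 3.30 in Tdg-/- lines. None of the 6 reached the 20 reads in a line required for a test, and no fold change is given, since each of the genes was at or under the limit of 3 reads in every line.

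**Figure D5:**
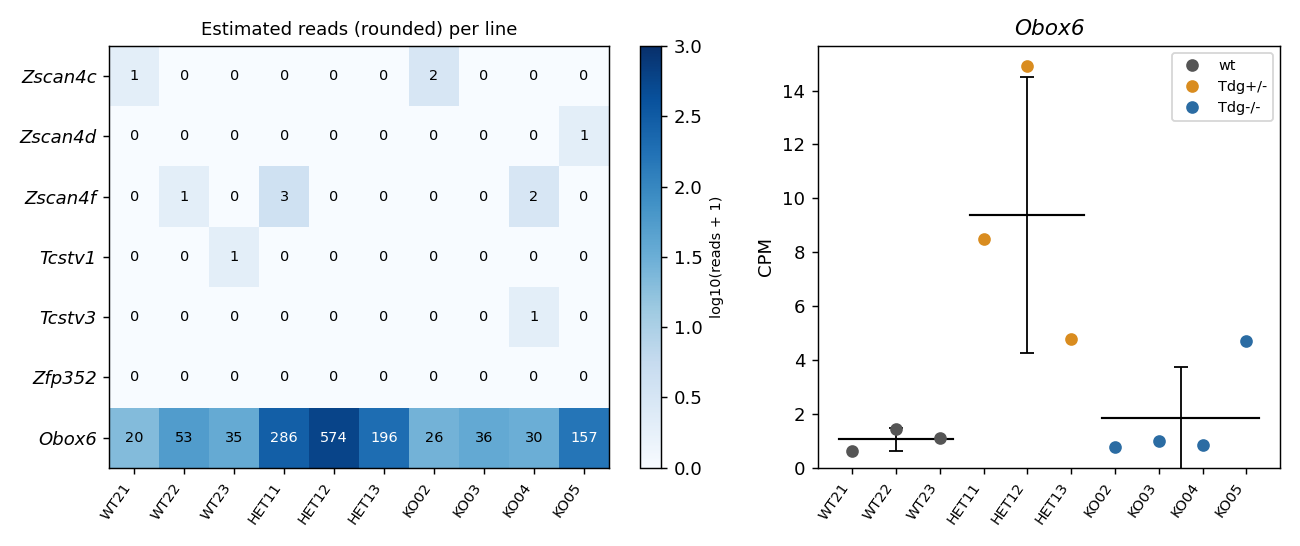
Left, estimated reads (rounded, colour on a log10 scale of reads + 1) of the 6 genes of the 2-cell stage and of Obox6 in each line. Right, CPM of Obox6 (y axis, from 0) per line with mean (horizontal line) and SD (bar, which for Tdg-/- lines would run below 0) per genotype, where the 3 Tdg+/- lines sit at 4.79 to 14.9 CPM and KO05 at 4.69.

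A wider list of 44 other genes of the 2-cell-like state was also nearly silent. Of 36 found in the data, 32 had under 20 reads in every line and 15 were at 0 throughout, among them Duxf3 (Dux), the factor that switches the state on. The 4 tested were Calcoco2, BB287469, Obox6 and Patl2. In Tdg+/- against wt 0 passed an adjusted p of 0.05 with edgeR. With DESeq2 1 (Obox6) was higher, beside 487 of all genes higher. Calcoco2 and Obox6, 2 in all, were higher by edgeR's unadjusted p under 0.05. How many of all genes reached that level was not counted, so nothing is read from such counts in this or the following lists. In Tdg-/- against wt 0 passed with edgeR at either level and 0 with DESeq2. In Tdg-/- against Tdg+/- 1 of 4 was lower, Obox6, beside 5.51% of all genes. The list's median log2 fold changes were 0.24, 0.21 and -0.12 in the 3 comparisons, beside -0.02, -0.01 and -0.02 for all genes tested.

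Obox6 belongs to the homeobox genes of the oocyte and early embryo, and 99.1% of its windows were found in no other gene. It had 0.607, 1.44 and 1.09 CPM in the wt lines (1.05 ± 0.418, n = 3), 8.48, 14.9 and 4.79 CPM in the Tdg+/- lines (9.39 ± 5.12, n = 3) and 0.780, 0.997, 0.851 and 4.69 CPM in the Tdg-/- lines (1.83 ± 1.91, n = 4). Every Tdg+/- line was above every wt line, and KO05 was nearly as high as HET13. With edgeR its log2 fold change was 3.15 ± 0.471 (SE, adjusted p = 0.0814) for Tdg+/- against wt, 0.81 (adjusted p = 0.496) for Tdg-/- against wt and -2.37 ± 0.627 (adjusted p = 0.0476) for Tdg-/- against Tdg+/-, the last of which was -3.42 without KO05. HET12, the highest at 574 Obox6 reads, had 0 reads of Zscan4c, Zscan4d and Zscan4f, and HET11, at 286, had 3.

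The genes that hold the 2-cell-like state down were expressed in all lines, and 30 of 30 on a list of such repressors could be tested. In Tdg+/- against wt 0 passed with edgeR, while an unadjusted p under 0.05 was reached by 2 as higher and by 2 as lower. By DESeq2 1 passed in each direction, beside 487 higher and 257 lower among all genes. In Tdg-/- against wt 0 passed with edgeR and 0 with DESeq2, while an unadjusted p under 0.05 was reached by 1 as higher and by 3 as lower. In Tdg-/- against Tdg+/- 1 was higher and 3 were lower. E2f6, a DNA-binding member of the variant polycomb complex PRC1.6, rose by a log2 of 0.69 ± 0.138 (SE, edgeR adjusted p = 0.0274), from 22.9 ± 1.57 CPM (n = 3) in Tdg+/- to 37.0 ± 5.29 (n = 4) in Tdg-/- lines, while in TPM the means were 10.7 and 13.5, with 13.4 in wt. L3mbtl2, of the same complex, fell by 0.69 on the log2 scale (SE 0.160, edgeR adjusted p = 0.0369). Ncl, which encodes nucleolin and with LINE1 RNA represses Dux, fell by 0.64 (SE 0.152, edgeR adjusted p = 0.0394), and Chaf1a, a subunit of the histone chaperone CAF-1, fell by 0.60 (SE 0.153, edgeR adjusted p = 0.0439). In TPM the genotypes overlapped for L3mbtl2 (39.6 in HET11, 45.2 in KO02) and Chaf1a (8.61 in HET11, 10.1 in KO02). These 4 of 30 stood beside 9.03% of all genes, and the list's median was -0.15 beside -0.02.

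Of 8 activators of the state, 1, Trp53, passed as lower in Tdg-/- against Tdg+/-, beside 5.51% of all genes. Trp53, the tumour suppressor that induces Dux after DNA damage, was lower by 0.87 on the log2 scale (SE 0.155, edgeR adjusted p = 0.0254). It lies on chromosome 11 and had 52.5 ± 10.5 CPM in wt (n = 3), 75.3 ± 10.4 in Tdg+/- (n = 3) and 41.3 ± 6.90 in Tdg-/- lines (n = 4). Its log2 fold change was 0.51 ± 0.170 (SE) for Tdg+/- against wt and -0.33 ± 0.169 for Tdg-/- against wt. Its level relative to chromosome 11 was not tested. By DESeq2 1 of the 8 was higher and 3 were lower in Tdg-/- against Tdg+/-, beside 1678 higher and 1669 lower among all genes. By edgeR's unadjusted p under 0.05 these were 1 and 4, with no count over all genes to set beside them. In the other comparisons 0 passed with edgeR or DESeq2, with 1 higher (Tdg+/- against wt) and 2 lower (Tdg-/- against wt) at an unadjusted p under 0.05. Of 9 tested relatives and neighbours of the Dppa genes, Khdc3, which like Dppa5a encodes a KH-domain protein, rose by 0.72 (SE 0.149, edgeR adjusted p = 0.0293) in the same comparison, from 16.2 ± 2.58 CPM (n = 3) to 26.8 ± 3.41 (n = 4), as 1 of 9 beside 3.52% of all genes higher, and was also the 1 gene called by DESeq2 and by the unadjusted p. In TPM the Khdc3 levels of KO03 (13.5) and of the Tdg+/- lines (13.1 to 14.3) overlapped. In Tdg+/- against wt 0 of the 9 passed with edgeR, DESeq2 or at an unadjusted p under 0.05. In Tdg-/- against wt 0 passed with edgeR. There 1, Khdc3, was higher with DESeq2, beside 53 of all genes higher, and at an unadjusted p under 0.05.

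The 7 calls in Tdg-/- against Tdg+/- depended on single lines. Leaving out HET12, HET13, KO03 or KO04 ended the call of each of Obox6, E2f6, L3mbtl2, Ncl, Chaf1a, Trp53 and Khdc3. Leaving out KO05 ended all but that of Obox6, and leaving out HET11 ended those of Obox6 and Ncl. The adjusted p from edgeR was then 0.0547 to 0.153, and every gene kept its direction. Without KO02 all 7 passed.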

How the data were processed

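RNA of 10 mouse ESC lines was measured, 1 library per line. Quantification by the authors used Salmon 0.8.1 and GRCm39 transcripts. Their deposited files hold, per transcript, an estimated count, which is not normalized, and a TPM value, which the authors' tool scaled by effective length to the same total in each line. Counts were added up by gene and rounded, with 98.97% of 116357 transcripts paired through a GRCm38 annotation (GENCODE M21) used for names, neighbours and coding sequences. Unpaired transcripts held 0.472% to 0.499% of reads and were left out.

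A gene needed 20 reads in 1 or more lines of a fit and was tested with edgeR 4.0.16 (quasi-likelihood, TMM, R 4.3.3), 2 genotypes per fit, with Benjamini-Hochberg adjustment over all genes. Tests were checked on simulated counts drawn gene by gene with a single dispersion. These held no shift common to many genes of a line, so the check does not cover such shifts in the real lines. Log2 CPM used a prior count of 2, and chromosome and length medians used genes averaging 5 CPM or more. Limits at 0 cover counting error only. DESeq2 1.42.0, sva 3.50.0, RLE scaling, no filter, all lines in 1 fit, a replicate block and leaving out each line were alternatives, and the comparison with genes of like length was added after the data were seen.

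The genes, lists and tests were chosen with earlier results of these data known. The named genes of each list are those past the threshold, and the genes most like a member are the 3 with the highest r, of which 1 is not reported here. Replicate numbers, which the labels give within a genotype, did not pair lines: correlations of deviations between same-numbered lines were 0.09, 0.08 and -0.10 for wt and Tdg+/-, 0.16, 0.09 and 0.19 for wt and Tdg-/-, and 0.00, 0.05 and -0.21 for Tdg+/- and Tdg-/- lines.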

Additional observations from a re-analysis of the deposited data

Results flagged for a closer look

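The CPM of Obox6 in KO05 was 4.69, while the other Tdg-/- lines had 0.780, 0.851 and 0.997, and the gap was wider than Dixon's 95% limit for 4 lines. It was the 1 value past this limit among 13 genes examined in the Tdg-/- lines, of which chance gives about 1 in 20. KO05 had 1 read of Zscan4d and 0 of Zscan4c, Zscan4f, Tcstv1 and Tcstv3, and 7.59 reads over all 9 Zscan4 genes, the most of any line.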

How the results depend on the processing

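For the 4 Dppa genes, 173 of 174 alternative values of the log2 fold change moved by less than 1 SD between lines, and 1 moved by more, Dppa4 in Tdg+/- against wt relative to chromosome 16 (-0.31). That limit is wide for genes that vary between lines. Dppa3 in Tdg-/- against wt stayed within it while going from -0.58 to -0.01 without WT21. Dppa5a in the same comparison stayed within it while going from 0.51 to 0.17 relative to genes of like length. Counts of called genes depended strongly on the fit. For Tdg+/- against wt, 4 genes became 269 without a filter, 744 with DESeq2, 23 with all lines in 1 fit, 3708 with 3 surrogate variables and 0 to 207 when a line was left out (207 without HET11). For Tdg-/- against wt, 10 became 19 without a filter, 93 with DESeq2 and 3 to 3077 when a line was left out (3077 without KO02). For Tdg-/- against Tdg+/-, 1261 became 3347 with DESeq2, and 12 to 5659 when a line was left out (5659 without KO02, and 12 to 22 without HET12, HET13, KO03, KO04 or KO05). Of the wider list in Tdg+/- against wt, 0 became 1 without a filter and with DESeq2, 2 with 3 surrogate variables (added after the data were seen, as for the repressors) and 0 to 1 when a line was left out. In Tdg-/- against Tdg+/-, 1 became 2 with DESeq2 and with all lines in 1 fit and 0 to 2 when a line was left out. Of the repressors in Tdg+/- against wt, 0 became 2 with DESeq2, 7 with 3 surrogate variables and 0 to 1 when a line was left out. In Tdg-/- against wt, 0 became 0 to 8 when a line was left out (8 without KO02), and in Tdg-/- against Tdg+/- 4 became 9 with DESeq2 and 0 to 13 when a line was left out (13 without KO02). The cause of these moves was not tested. With the replicate number as a block, although the numbers do not pair lines, the counts were 33, 5 and 7 genes in the 3 comparisons, 1 of the wider list for Tdg+/- against wt and 0 repressors for Tdg-/- against Tdg+/-. RLE scaling moved none of these counts by over 1.5 times. At this depth the 6 genes of the 2-cell stage remain at the limit of detection.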
